A study of Sus scrofa with 6 samples.

Results

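The SLC25 mitochondrial carriers were described in the longissimus dorsi (LD) muscle of Laiwu pigs with high or low intramuscular fat (IMF). Members were the genes whose symbol in the expression table is SLC25A followed by a number. The values of all transcript rows sharing a gene ID were summed, and genes with a mean of at least 0.1 FPKM (fragments per kilobase of transcript, scaled to library size) over the pigs were kept. Of 41 such genes among 31908 annotated genes, 37 were kept, and these held 150 of the 83119 transcript rows. SLC25A31, the testis form of the ADP/ATP carrier, was listed at 0 in every pig. SLC25A41, SLC25A48 and SLC25A53 had means of 0.026, 0.051 and 0.047 FPKM. The kept genes nearest to the minimum were SLC25A35 at 0.329 FPKM and SLC25A2 at 0.427 FPKM.

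The S-H group held 3 pigs with high IMF (LW63, LW70 and LW119) and the S-L group held 3 pigs with low IMF (LW82, LW88 and LW90). All 6 were castrated males of the Laiwu breed, a Chinese breed known for fatty muscle, and each gave 1 RNA library from LD, the large back muscle. The pigs were picked from the ends of a larger group for their IMF, no treatment is given for either group, and their ages are not given in the sources used here. In such bulk samples fewer cells of a type and less RNA per cell cannot be told apart.

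SLC25 proteins are the transporters of the inner mitochondrial membrane. Most exchange a metabolite of the matrix for one of the cytosol, and the family covers nucleotides, phosphate, keto acids, amino acids, acylcarnitines, cofactors and iron. In muscle they link ATP made in mitochondria to contraction, bring in fatty acids and move reducing equivalents through the malate-aspartate shuttle. A few members work in other membranes, such as SLC25A17 of the peroxisome.

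The energy carriers made up most of the family's level in every pig. SLC25A4, the muscle form of the ADP/ATP carrier (chromosome 15, positions 46193699 to 46200994 in the Sscrofa11.1 coordinates of the table), had the highest mean, 490 FPKM. SLC25A13 was listed next at 251 FPKM, SLC25A6 followed at 164 FPKM and SLC25A3, the phosphate carrier, at 82.0 FPKM. Only the first 3 of these reached 100 FPKM, while 12 members reached 10 FPKM and 32 reached 1 FPKM. The median of the members' means was 3.42 FPKM, beside 3.67 FPKM over all 12740 protein-coding genes tested, so the family spans the levels of ordinary muscle genes with a few very abundant members.

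**Figure D1:**
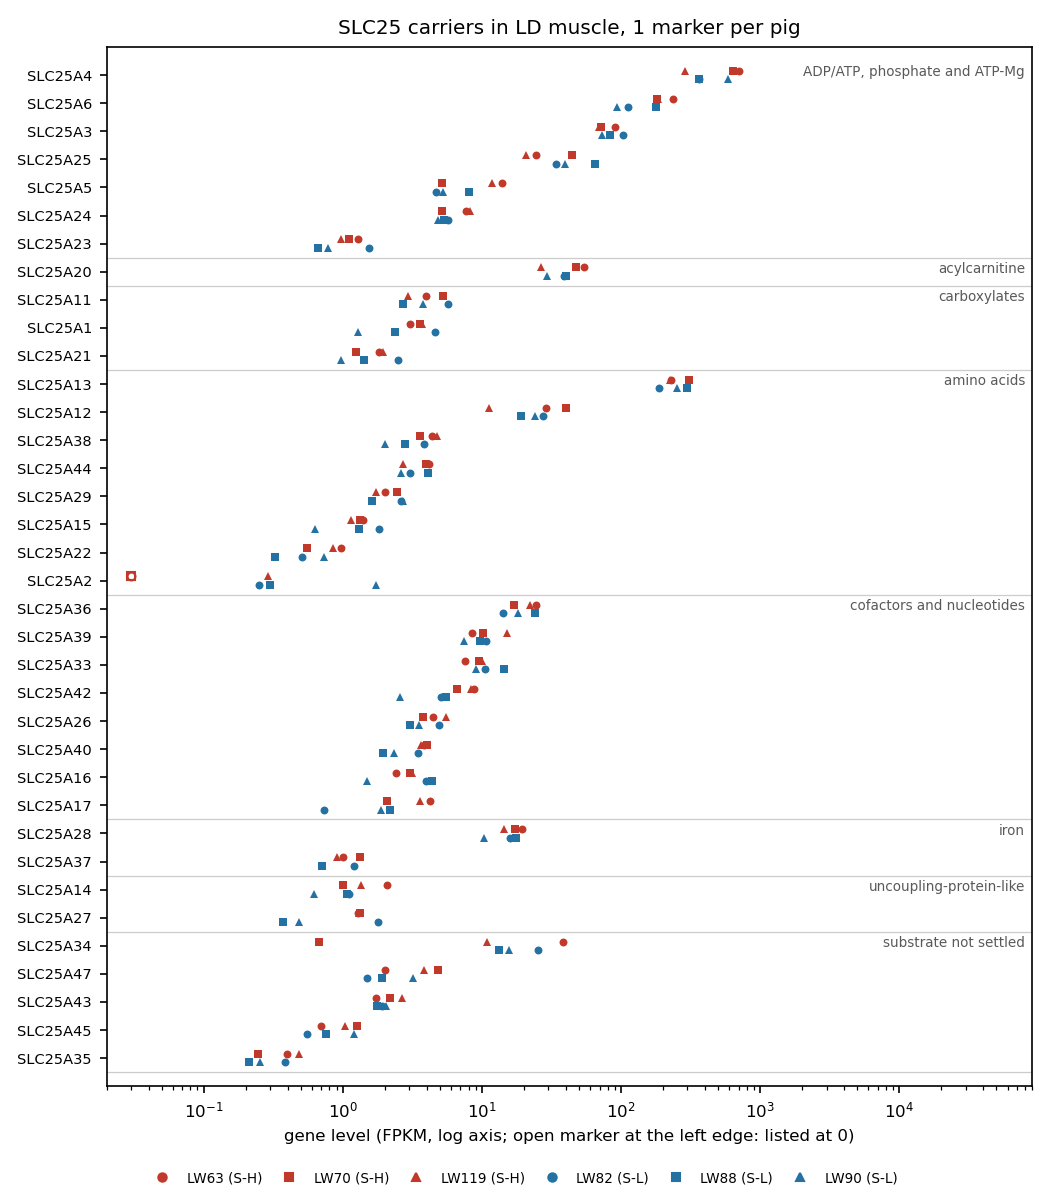
Level of 36 of the 37 kept SLC25 genes in FPKM on a log axis, with 1 marker per pig, S-H in red and S-L in blue, grouped by substrate. SLC25A4 lies between 290 and 704 FPKM, most other carriers lie below 10 FPKM, and the red and blue markers are interleaved for all but 3 genes.

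The level of SLC25A13, the aspartate/glutamate carrier called citrin, came almost wholly from a transcript outside the carrier's gene. An assembled transcript at chromosome 9, positions 76324544 to 76349272, gave 98.9% of the summed value, with levels of 226, 306 and 223 FPKM in LW63, LW70 and LW119 and of 185, 297 and 250 FPKM in LW82, LW88 and LW90. It lies 344 kb beyond the end of the SLC25A13 gene of RefSeq (75781421 to 75980606), and it overlaps the RefSeq gene SEM1 (76324550 to 76349261) reciprocally by 99.9%. SEM1 encodes a small subunit of the proteasome, and RefSeq lists this locus as a lncRNA. The 9 annotated SLC25A13 transcripts together had a mean of 2.03 FPKM, with 3.11, 1.39 and 2.10 FPKM in the S-H pigs and 2.35, 1.62 and 1.58 FPKM in the S-L pigs. The highest of them, SLC25A13-201 at 1.41 FPKM, itself runs from 75754392 to 76349242 and so spans both loci. The 251 FPKM is therefore a value of the gene ID and not a level of citrin.

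SLC25A47, a liver gene of unsettled substrate, was affected in the same way. Assembled rows outside its RefSeq position (chromosome 7, 121204213 to 121210376) gave 87.2% of its summed value. A row that gave 52.3% of the summed value overlaps the neighbouring SLC25A29 reciprocally by 91.8%. Its annotated transcripts reached 0.186, 0.817 and 0.629 FPKM in LW63, LW70 and LW119 and 0.171, 0.058 and 0.353 FPKM in LW82, LW88 and LW90.

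Assembled rows gave at least 10% of the level in 9 members and at least 50% in 5. In SLC25A26 (81.1%), the S-adenosylmethionine carrier, SLC25A37 (69.7%), the iron carrier mitoferrin 1, and SLC25A21 (64.5%), an oxodicarboxylate carrier, these rows overlapped the carrier's own gene. SLC25A6 is on an unplaced scaffold, where no RefSeq position was matched, and 98.3% of its level came from the annotated transcript SLC25A6-202.

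**Figure D2:**
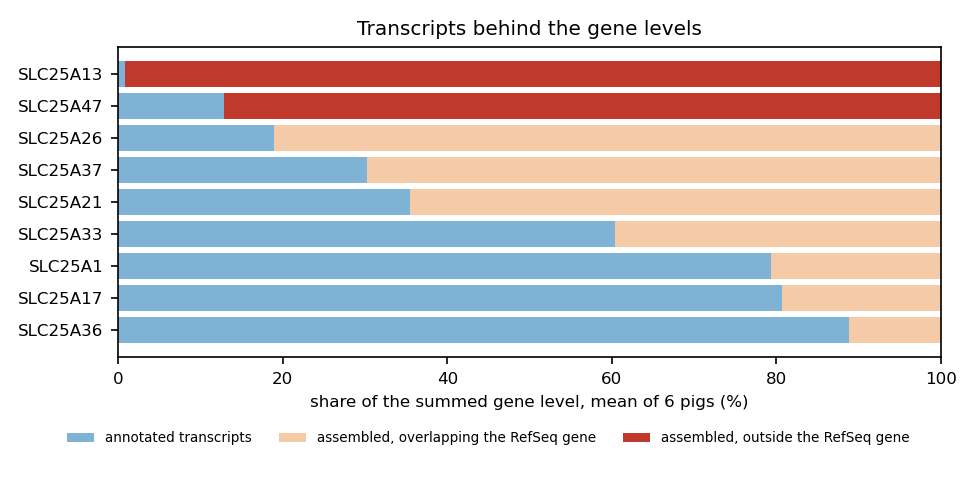
Share of each gene's summed FPKM (percent of the mean over 6 pigs) from annotated transcripts, from assembled transcripts overlapping the RefSeq gene and from assembled transcripts outside it, for the 9 members with at least 10% from assembled rows. SLC25A13 and SLC25A47 are the only members with rows outside the gene, at 99.2% and 87.2%.

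The main question of the design was whether the carriers differed between high and low IMF. None of the 36 members that could be tested passed the study's thresholds, an unadjusted p below 0.01 together with a log2 fold change past 1 in either direction, in limma on log2(FPKM + 0.1). Over all tested genes 1.36% passed. At an unadjusted p below 0.05, 3 members (8.33%) were higher in S-H, beside 7.08% of all genes, and 0 members were lower, beside 1.08%. The 3 were SLC25A42, SLC25A17 and SLC25A6, with Benjamini-Hochberg adjusted p values of 0.58, 0.605 and 0.608. Over all tested genes 0 had an adjusted p below 0.05 and 1039 had an unadjusted p below 0.05. The share of members called higher was thus close to that of all genes, and these counts show nothing particular to the carriers. Counts of partner and marker genes given below are to be read beside the same shares of all genes.

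The members also followed the other genes in direction. The median log2 fold change (S-H minus S-L) was 0.25 over the members and 0.21 over all tested genes, and 30 of 36 members had a value above 0 (83.3%, beside 74.1% of all genes). With median-ratio size factors, which put the libraries on a common scale, the medians were 0.03 and 0.01, and 20 of 36 members (55.6%, beside 50.9%) had a value above 0. A log2 fold change on the FPKM scale is therefore read here against 0.21. Levels in every S-H pig exceeded those in every S-L pig for 3 members (SLC25A6, SLC25A42 and SLC25A40), 8.33% beside 13.1% of all genes. The opposite held for 0 members, beside 1.7% of all genes. With size factors 1 member (SLC25A42) lay above in every S-H pig, beside 5.97% of all genes, and 2 members (SLC25A3 and SLC25A33, 5.56%) lay below, beside 6.52%. After size factors 1 of 36 members, SLC25A42, had an unadjusted p below 0.05 (2.78%, beside 6.68% of all genes either way).

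**Figure D3:**
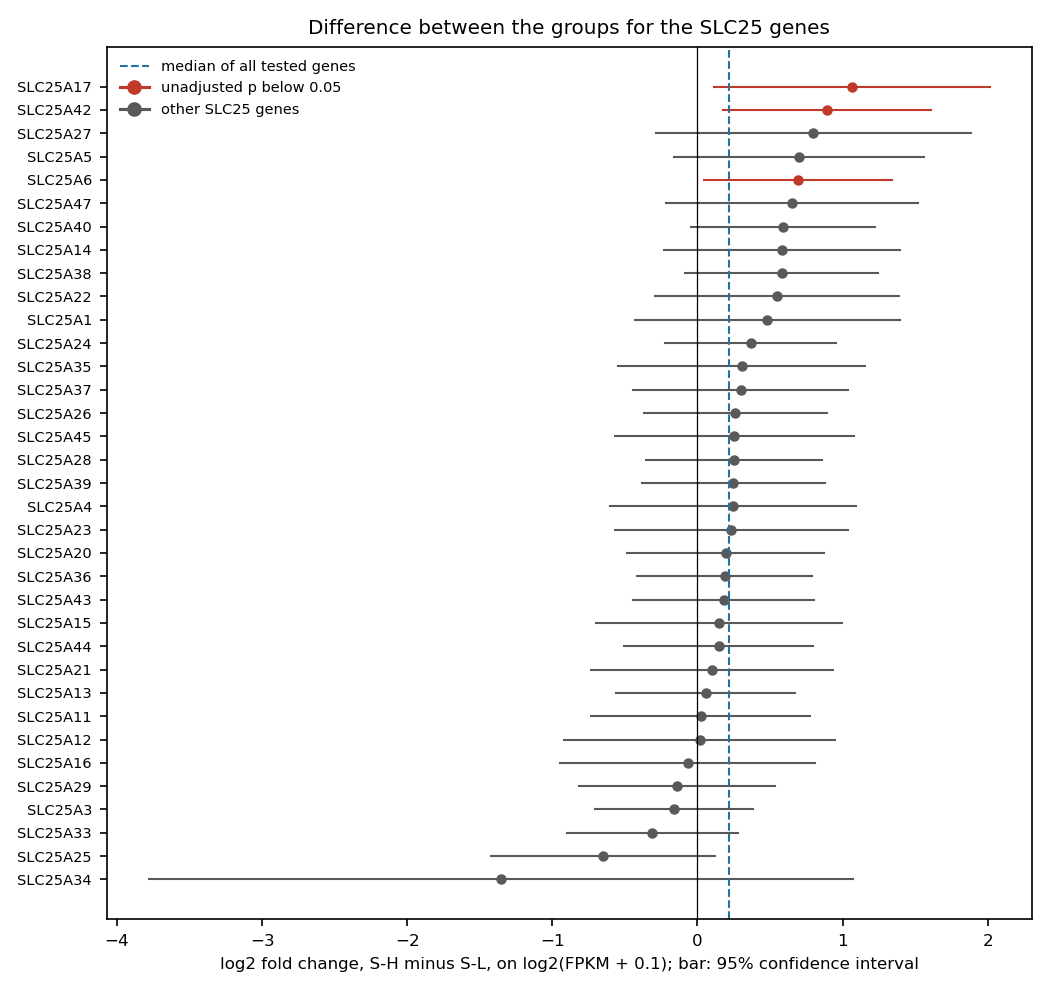
Log2 fold change (S-H minus S-L, on log2(FPKM + 0.1)) of 35 of the 36 tested SLC25 genes with 95% confidence intervals from limma. The dashed line is the median of all tested genes, 0.21, and the plotted intervals include it, SLC25A42 among them with a lower bound of 0.18, except that of SLC25A25 with an upper bound of 0.12.

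Among the ADP/ATP carriers, which exchange cytosolic ADP for the ATP made in the matrix, SLC25A4 had levels of 704, 634 and 290 FPKM in LW63, LW70 and LW119 and of 366, 365 and 584 FPKM in LW82, LW88 and LW90. LW119 was the lowest of all 6 pigs and LW63 the highest, so the S-H group enclosed the S-L group. The log2 fold change was 0.24 (SE 0.38, 95% interval -0.61 to 1.09, adjusted p = 0.865). It was 0.0044 without LW63 and 0.64 without LW119, with an unadjusted p above 0.05 in both.

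SLC25A6, the third form, found in many tissues, had 237, 183 and 184 FPKM in LW63, LW70 and LW119 and 113, 178 and 93.9 FPKM in LW82, LW88 and LW90. The lowest S-H pig lay just above the highest S-L pig, so the groups did not overlap. The log2 fold change was 0.69 (SE 0.29, adjusted p = 0.608), and 0.47 (SE 0.29, adjusted p = 0.809) with size factors, where its unadjusted p was no longer below 0.05.

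SLC25A5, the form of growing cells (chromosome X, 97919290 to 97922245), was in every pig the lowest of the 3 kept ADP/ATP carriers. It had 13.9, 5.15 and 11.8 FPKM in LW63, LW70 and LW119 and 4.65, 8.05 and 5.21 FPKM in LW82, LW88 and LW90. LW63 and LW119 were above the S-L pigs and LW70 was among them, with a log2 fold change of 0.70 (SE 0.39, adjusted p = 0.636). It was 1.13 without LW70, where SLC25A5 passed both thresholds, and 0.42 without LW63, where its unadjusted p was above 0.05.

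A share within a library does not depend on the scaling between libraries. SLC25A4 made up 73.8%, 77.1% and 59.7% of the 3 ADP/ATP carriers in LW63, LW70 and LW119 and 75.7%, 66.3% and 85.5% in LW82, LW88 and LW90. The muscle form was the largest part in every pig. The S-H mean was 70.2% ± 9.26 (SD, n = 3) and the S-L mean 75.8% ± 9.61 (SD, n = 3), with p = 0.5 in an exact two-sided permutation test and 0.833 after adjustment over 5 shares. With 3 pigs against 3, 0.1 is the smallest p such a test can give. SLC25A6 made up 28.3% ± 8.40 in S-H and 23.1% ± 9.26 in S-L, and SLC25A5 made up 1.51% ± 0.906 and 1.06% ± 0.361. Of 6 tested partners in ATP export (the VDAC channels, creatine kinases and others), 0 had an unadjusted p below 0.05 in limma.

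**Figure D4:**
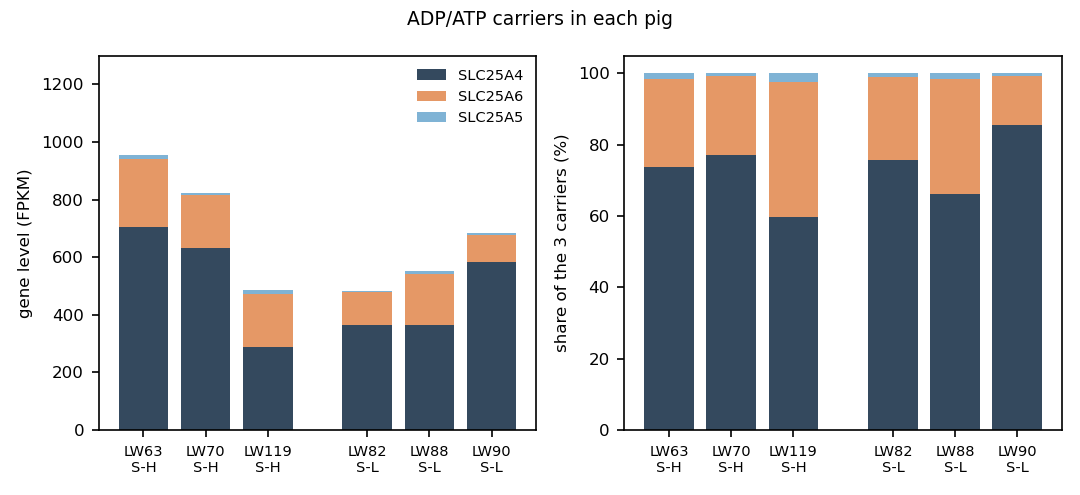
Stacked levels (FPKM, left) and shares (percent, right) of SLC25A4, SLC25A6 and SLC25A5 in each pig. The summed level ranges from 483 FPKM in LW82 to 955 FPKM in LW63, with both LW119 of S-H and LW82 of S-L near the bottom, and SLC25A4 is the largest part in all 6 pigs.

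SLC25A3, which brings in the phosphate that ATP synthase uses, was among the steadiest members. It had 90.6, 71.7 and 69.5 FPKM in LW63, LW70 and LW119 and 104, 83.0 and 73.4 FPKM in LW82, LW88 and LW90, with a highest level 1.49 times the lowest. The groups overlapped, and the log2 fold change was -0.16 (SE 0.24, adjusted p = 0.861). With size factors every S-H pig lay below every S-L pig (60.6 to 80.0 against 85.5 to 102), with a log2 fold change of -0.38 (SE 0.23, adjusted p = 0.809). The level of SLC25A3 relative to SLC25A3 and SLC25A4 together was 13.6% ± 4.98 in S-H and 17.3% ± 5.57 in S-L (exact permutation p = 0.5, adjusted 0.833).

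The calcium-regulated ATP-Mg/phosphate carriers, which change the adenine nucleotide content of the matrix, were led by SLC25A25 (chromosome 1, 268531752 to 268576996). Its levels were 24.3, 44.2 and 20.7 FPKM in LW63, LW70 and LW119 and 33.8, 64.5 and 39.5 FPKM in LW82, LW88 and LW90. LW63 and LW119 were below all S-L pigs and LW70 was within them. This gave a log2 fold change of -0.65 (SE 0.35, adjusted p = 0.627), and of -0.87 (SE 0.39, adjusted p = 0.749) with size factors. Its unadjusted p was below 0.05 with quantile normalization (log2 fold change -0.83, SE 0.33) and without LW70 (-0.97, SE 0.32), and above 0.05 without LW88 (-0.38, SE 0.35).

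SLC25A25 made up 76.7% ± 9.66 of the 3 ATP-Mg/phosphate carriers in S-H and 87.1% ± 4.63 in S-L (exact permutation p = 0.3, adjusted 0.833). SLC25A24 and SLC25A23, the other forms, had means of 6.15 and 1.06 FPKM and log2 fold changes of 0.37 and 0.23.

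SLC25A20 carries acylcarnitines into the matrix, the step between CPT1 at the outer membrane and CPT2 in the matrix that fatty acid oxidation requires. It had 54.4, 47.4 and 26.7 FPKM in LW63, LW70 and LW119 and 39.1, 40.3 and 29.2 FPKM in LW82, LW88 and LW90. LW119 was again the lowest pig, and LW63 and LW70 were above all S-L pigs. The log2 fold change was 0.19 (SE 0.30, 95% interval -0.48 to 0.87, adjusted p = 0.866), near the median of all genes. Of its partners in carnitine-dependent oxidation (CPT1B, CPT2, HADHA and others), 0 of 8 had an unadjusted p below 0.05 in limma, with a median log2 fold change of 0.24. Their summed level was also lowest in LW119 (465 FPKM) and highest in LW70 (1102 FPKM), with 567 to 682 FPKM in S-L.

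Among the keto acid carriers, SLC25A11 exchanges 2-oxoglutarate for malate in the malate-aspartate shuttle and led its class. It had 3.94, 5.27 and 2.94 FPKM in LW63, LW70 and LW119 and 5.69, 2.71 and 3.78 FPKM in LW82, LW88 and LW90, and the groups overlapped. Its log2 fold change was 0.02 (SE 0.34, adjusted p = 0.991).

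SLC25A1 exports citrate, from which the cytosol makes acetyl-CoA for fatty acid synthesis. It had 3.05, 3.57 and 3.69 FPKM in LW63, LW70 and LW119 and 4.63, 2.37 and 1.28 FPKM in LW82, LW88 and LW90. LW82 was the highest pig and LW88 and LW90 were the lowest, and the log2 fold change was 0.48 (SE 0.41, adjusted p = 0.730). It was 0.93 without LW82, with an unadjusted p below 0.05, and 0.05 without LW90. SLC25A21 had a mean of 1.65 FPKM and a log2 fold change of 0.10, which was -0.10 with size factors and 0.40 (SE 0.31) on its annotated transcripts alone.

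Enzymes around the citrate carrier were the partner group with the most genes called. Of 10 tested, 3 were higher in S-H at an unadjusted p below 0.05 in limma, beside 7.08% of all genes. The lists were chosen with earlier results of these data known, so the rank of this group is a description only. IDH1, the cytosolic isocitrate dehydrogenase that makes NADPH, had 44.4, 26.7 and 22.4 FPKM in LW63, LW70 and LW119 and 11.06, 12.6 and 5.45 FPKM in LW82, LW88 and LW90. Its log2 fold change was 1.70 (SE 0.37, adjusted p = 0.464), and it passed both thresholds. ACACA, which makes malonyl-CoA for fatty acid synthesis, had a log2 fold change of 0.87 (SE 0.32), and ME3, a mitochondrial malic enzyme, of 0.76 (SE 0.31). The groups overlapped for ACACA and for ME3. With size factors 2 of the 10, IDH1 and ACACA, had an unadjusted p below 0.05, beside 6.68% of all genes either way.

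SLC25A12, the aspartate/glutamate carrier called aralar (chromosome 15, 77895935 to 78098383), brings glutamate into the matrix for the malate-aspartate shuttle. Its levels were 28.9, 39.9 and 11.14 FPKM in LW63, LW70 and LW119 and 27.3, 19.0 and 24.1 FPKM in LW82, LW88 and LW90. LW119 was the lowest pig and LW70 the highest, which gave a log2 fold change of 0.02 (SE 0.42, adjusted p = 0.994).

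By the summed values SLC25A12 was 9.11% ± 3.83 of SLC25A12 and SLC25A13 in S-H and 9.10% ± 3.36 in S-L (exact permutation p = 1). With annotated transcripts only, aralar was 90.3% ± 6.24 of the pair in S-H and 92.7% ± 1.01 in S-L (exact permutation p = 0.7), so the assembled row on the SEM1 locus turns round which form appears to be the main one. Of 6 shuttle enzymes tested, 0 had an unadjusted p below 0.05 in limma, and their median log2 fold change was 0.12. GOT1, GOT2, MDH1 and MDH2 of the malate-aspartate shuttle had values between 0.06 and 0.25. GPD1 and GPD2, of the glycerol phosphate shuttle, had values of 0.74 and -0.47.

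The other amino acid carriers had lower means than SLC25A12. SLC25A38, a glycine carrier needed for haem synthesis, had a mean of 3.56 FPKM and a log2 fold change of 0.58 (SE 0.30, adjusted p = 0.619). SLC25A44, which carries branched-chain amino acids, had a mean of 3.42 FPKM and a log2 fold change of 0.15 (-0.07 with size factors), and 0 of 5 tested enzymes of branched-chain amino acid breakdown had an unadjusted p below 0.05 in limma. SLC25A29, a carrier of basic amino acids, SLC25A15, the ornithine carrier, and SLC25A22, a glutamate carrier, had means of 2.18, 1.27 and 0.657 FPKM, with log2 fold changes of -0.14, 0.15 (-0.05 with size factors) and 0.55.

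SLC25A2, the second ornithine carrier, has no protein-coding entry under its name or position in RefSeq and was not in the main fit. It was listed at 0 in LW63 and LW70, at 0.288 FPKM in LW119 and at 0.250, 0.300 and 1.72 FPKM in LW82, LW88 and LW90. In a fit over all 16333 annotated genes its log2 fold change was -2.01 (SE 0.76, adjusted p = 0.650), with an unadjusted p below 0.05. LW90 stood well above the other pigs, whose values were low.

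The cofactor carriers held 2 of the 3 genes with an unadjusted p below 0.05. SLC25A42 brings coenzyme A, the acyl group carrier of the citric acid cycle and fatty acid oxidation, into the matrix (chromosome 2, 58753371 to 58801832). It had 8.79, 6.56 and 8.30 FPKM in LW63, LW70 and LW119 and 5.08, 5.49 and 2.58 FPKM in LW82, LW88 and LW90. The groups did not overlap, and LW90 was well below the others. The means were 7.88 ± 1.17 and 4.38 ± 1.57 FPKM (SD, n = 3 each). The log2 fold change was 0.89 (SE 0.32, adjusted p = 0.58), and 0.68 (SE 0.25, adjusted p = 0.699) with size factors. It was 0.56 without LW90 and 0.81 without LW63, and its unadjusted p was then above 0.05.

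SLC25A17, the peroxisomal carrier of coenzyme A, FAD and NAD (chromosome 5, 7622645 to 7741541), had 4.21, 2.06 and 3.59 FPKM in LW63, LW70 and LW119 and 0.736, 2.17 and 1.89 FPKM in LW82, LW88 and LW90. LW70 lay below LW88, so the groups overlapped, and LW82 was the lowest pig. Its log2 fold change was 1.06 (SE 0.43, adjusted p = 0.605), and 0.85 (SE 0.43, adjusted p = 0.765) with size factors. It was 0.61 without LW82, 0.86 without LW63 and 0.97 without LW119, and its unadjusted p was above 0.05 in each of these and with size factors. The main transcript, SLC25A17-201, was listed at 0 in LW82 and between 0.90 and 2.84 FPKM in the other pigs.

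SLC25A36, a pyrimidine nucleotide carrier that serves mitochondrial DNA and RNA synthesis, was the most abundant of the class. It had 24.4, 16.9 and 22.0 FPKM in LW63, LW70 and LW119 and 14.0, 24.0 and 18.2 FPKM in LW82, LW88 and LW90. The groups overlapped, with a log2 fold change of 0.19 (SE 0.27, adjusted p = 0.854). SLC25A33, the other pyrimidine nucleotide carrier, had a mean of 10.2 FPKM and went the other way, with a log2 fold change of -0.31 (SE 0.26, adjusted p = 0.729) and, with size factors, -0.53 (SE 0.24, adjusted p = 0.754). After size factors every S-H pig (6.62 to 9.76) was below every S-L pig (10.3 to 14.9) for SLC25A33. SLC25A3 was the other member with this order among the 36.

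Both glutathione carriers had values above 0. SLC25A39 had a mean of 10.3 FPKM and a log2 fold change of 0.25 (SE 0.28, adjusted p = 0.801), with LW119 highest at 15.2 FPKM. SLC25A40 had 3.85, 4.02 and 3.65 FPKM in LW63, LW70 and LW119 and 3.47, 1.95 and 2.34 FPKM in LW82, LW88 and LW90. Its groups did not overlap, and its log2 fold change was 0.59 (SE 0.28, adjusted p = 0.614). With size factors it was 0.37 (SE 0.26, adjusted p = 0.810), and LW82 (3.42) then lay above LW63 (3.40) and LW119 (3.18).

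SLC25A26 supplies the S-adenosylmethionine for methylation inside mitochondria. With all transcripts its levels ran from 3.04 to 5.47 FPKM, with a log2 fold change of 0.26 (SE 0.28, adjusted p = 0.794). Its annotated transcripts alone had 0.877, 0.712 and 2.57 FPKM in LW63, LW70 and LW119 and 0.136, 0.149 and 0.300 FPKM in LW82, LW88 and LW90. On these the groups did not overlap, with a log2 fold change of 2.16 (SE 0.49, adjusted p = 0.584), and SLC25A26 was then the 1 member to pass both thresholds. Assembled rows held over 50% of the summed level of SLC25A26 in every pig. SLC25A16, linked to coenzyme A, had a log2 fold change of -0.07.

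The iron carriers supply iron for iron-sulphur clusters and haem. SLC25A28, mitoferrin 2, had 19.5, 17.4 and 14.5 FPKM in LW63, LW70 and LW119 and 16.0, 17.7 and 10.3 FPKM in LW82, LW88 and LW90, with overlapping groups and a log2 fold change of 0.25 (SE 0.27, adjusted p = 0.794). SLC25A37, mitoferrin 1, had a mean of 0.976 FPKM and made up 5.96% ± 1.12 of the pair in S-H and 5.76% ± 1.66 in S-L (exact permutation p = 0.9). Mitoferrin 2 was thus the main form in all 6 pigs.

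Of 7 tested genes of iron-sulphur cluster and haem synthesis, GLRX5, which passes on iron-sulphur clusters, was the only 1 with an unadjusted p below 0.05 in limma. It had 41.8, 44.2 and 13.3 FPKM in LW63, LW70 and LW119 and 6.98, 5.40 and 3.51 FPKM in LW82, LW88 and LW90. Its log2 fold change was 2.49 (SE 0.45, adjusted p = 0.262), and it passed both thresholds.

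The uncoupling-protein-like carriers SLC25A14 and SLC25A27, best known from brain, had means of 1.20 and 1.09 FPKM. SLC25A14 was highest in LW63 (2.07 FPKM), lowest in LW90 (0.617 FPKM) and between 1.002 and 1.34 FPKM in the other pigs, with a log2 fold change of 0.58 (SE 0.36, adjusted p = 0.661). The S-L pig LW82 was the highest for SLC25A27 at 1.80 FPKM, LW88 and LW90 were at 0.372 and 0.484 FPKM, and the 3 S-H pigs lay between 1.29 and 1.32 FPKM. Its log2 fold change was 0.80 (SE 0.49, adjusted p = 0.659), and without LW82 it was 1.42 and passed both thresholds. Without LW88 it was 0.41.

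SLC25A34, whose substrate is not settled, varied most between pigs. It had 38.0, 0.677 and 10.8 FPKM in LW63, LW70 and LW119 and 25.4, 13.3 and 15.7 FPKM in LW82, LW88 and LW90. The S-H group held both the highest and the lowest pig, a range of 56.2 times on a single annotated transcript. The fitted difference was a log2 fold change of -1.36 (SE 1.09, adjusted p = 0.718). It turned to 0.22 without LW70 and was -2.59 without LW63, where its unadjusted p was below 0.05. The other members without a settled substrate, SLC25A43, SLC25A45, SLC25A35 and SLC25A47, had log2 fold changes between 0.18 and 0.65. The value of SLC25A43 was -0.03 with size factors. The 0.65 of SLC25A47 rests on rows outside its gene, and its annotated transcripts alone gave 1.10 (SE 0.56, adjusted p = 0.638).

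Apart from the comparison of the groups, pigs differed in which transcript row of a carrier was listed highest, called the leading transcript here. Of 33 members with more than 1 transcript row, 18 had the same leading transcript in all pigs and 15 did not. In 0 of the 33 did the S-H pigs have only leading transcripts that led in no S-L pig. No share over all genes is given beside these counts.

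SLC25A25 was the clearest case. SLC25A25-202 gave 88.4% and 81.0% of its level in LW63 and LW119 and 87.8% and 88.4% in LW88 and LW90. In LW70 and LW82 it gave 4.21% and 2.59%, and SLC25A25-205 gave 93.6% and 95.3% there. LW70 and LW82 are from different groups.

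For SLC25A4, SLC25A4-203 gave 12.2%, 15.6% and 14.2% in LW70, LW82 and LW88 and at most 0.322% in LW63, LW119 and LW90, while SLC25A4-202 led in every pig. SLC25A12-203 gave 48.9% of SLC25A12 in LW119 and 36.7% in LW82 and at most 0.461% in the other pigs. StringTie divides the reads of a gene between overlapping transcripts, and how exact this division was could not be measured from these values.

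**Figure D5:**
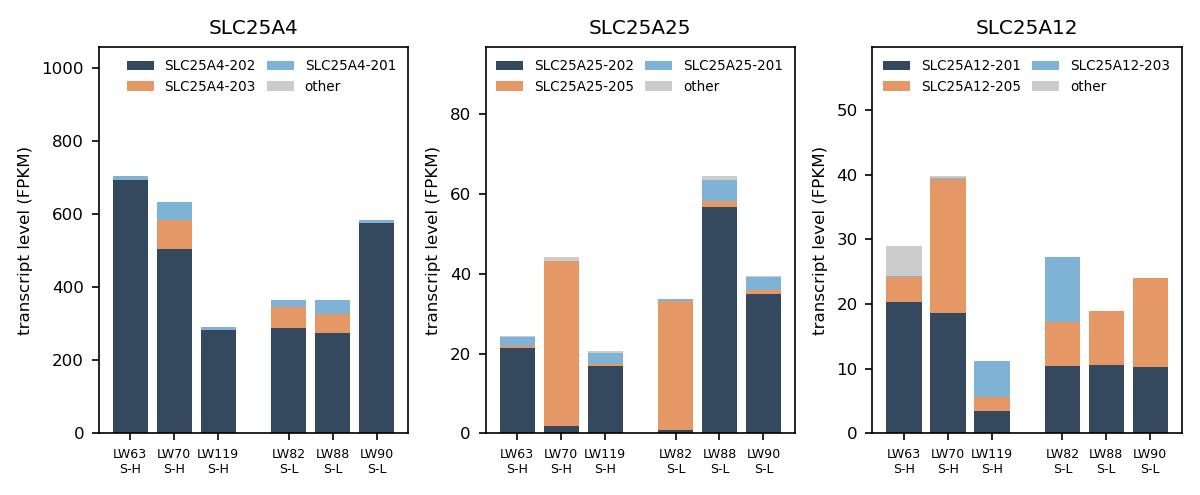
Levels (FPKM) of the 3 transcripts with the highest means and of the other transcripts together for SLC25A4, SLC25A25 and SLC25A12 in each pig. SLC25A25-205 replaces SLC25A25-202 in LW70 (S-H) and LW82 (S-L), and SLC25A12-203 appears in LW119 (S-H) and LW82 (S-L).

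The pig LW119 was lowest of 6 on the FPKM scale for 5 of 37 members, and highest for 6. The 5 were the abundant carriers SLC25A4, SLC25A3, SLC25A20, SLC25A12 and SLC25A25, looked at after the values were seen. The abundant SLC25A6 went the other way, at 184 FPKM in LW119, above every S-L pig. After size factors LW119 was the lowest pig for 10 of 37 members, LW70 for 2 and the other 4 pigs for 4 to 7. On the FPKM scale LW90 was the lowest for 14 of 37 members and LW63 the highest for 12. Shares over all genes are not given beside these counts of pigs. The FPKM of all transcripts summed to 638536 in LW119 and to between 776457 and 846661 in the other pigs. The carriers summed to 978 FPKM in LW119, the lowest, and 1547 FPKM in LW63, the highest. These sums include the row on the SEM1 locus. On annotated transcripts alone they were 737 FPKM in LW119 and 1303 FPKM in LW63, again the lowest and the highest. Respiratory chain genes summed to 1353 FPKM in LW119, also the lowest, and to 3250 FPKM in LW70, the highest, and 0 of 14 had an unadjusted p below 0.05 in limma.

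Some members are neighbours in the genome, and their levels differed within each pair. SLC25A43 and SLC25A5 lie 12529 bases apart on chromosome X, with means of 2.05 and 8.14 FPKM. SLC25A23 and SLC25A41 lie 5298 bases apart on chromosome 2, with means of 1.06 and 0.026 FPKM. SLC25A29 and SLC25A47 lie 154 bases apart on chromosome 7 by their annotated transcripts, and a row named for SLC25A47 covers SLC25A29. RefSeq begins SLC25A47 farther on, at 121204213. SLC25A29 had a mean of 2.18 FPKM and the annotated transcripts of SLC25A47 had 0.369 FPKM.

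Carriers listed in the table without an SLC25A symbol, or known by other names, were compared by gene ID. The rows of SLC25A10, SLC25A32 and SLC25A46, which carry no symbol, were first put on the FPKM scale. SLC25A46 had a mean of 17.5 FPKM and a log2 fold change of 0.17 (-0.05 with size factors). SLC25A32 had a mean of 3.37 FPKM and a log2 fold change of -0.23 (-0.44 with size factors). UCP2 had a mean of 1.12 FPKM and a log2 fold change of 0.30. SLC25A10, the dicarboxylate carrier, had 4.90, 3.19 and 2.47 FPKM in LW63, LW70 and LW119 and 2.48, 3.18 and 1.60 FPKM in LW82, LW88 and LW90, with a log2 fold change of 0.52 (SE 0.35, adjusted p = 0.678). UCP3, the uncoupling protein of muscle, had 110, 81.2 and 35.5 FPKM in LW63, LW70 and LW119 and 66.6, 139 and 86.8 FPKM in LW82, LW88 and LW90. LW119 was the lowest pig here too, and the log2 fold change was -0.45 (SE 0.42, adjusted p = 0.763). MTCH1, a carrier-like protein of the outer membrane and the only 1 of 14 further carriers and calcium channel subunits tested with an unadjusted p below 0.05, was higher in every S-H pig (37.0 to 44.0 FPKM against 25.3 to 29.5), with a log2 fold change of 0.56 (SE 0.22, adjusted p = 0.597). With size factors it was 0.34, its unadjusted p was above 0.05, and LW119 (32.2) lay below LW90 (33.2). Of 8 tested genes of the import route that inserts carriers into the inner membrane, 0 had an unadjusted p below 0.05 in limma.

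Markers of some of the cells that a muscle sample holds were called at an unadjusted p below 0.05. Over all genes the shares called in limma were 7.08% higher and 1.08% lower, and 6.68% either way with size factors. The tissue label held, with 6 of 8 muscle markers found at 324 FPKM or more in every pig. Of 11 adipocyte markers, 7 were higher in S-H at an unadjusted p below 0.05 in limma and 5 passed both thresholds, with summed levels of 733 to 1828 FPKM in S-H and 563 to 781 FPKM in S-L. Muscle fibres also express some of these markers, such as CD36, PNPLA2 and GPD1, the last of which is in the shuttle list too. Slow fibre markers were higher for 2 of 9 (TPM3 and MYOZ2), with sums of 9708 to 11598 FPKM in S-H and 6492 to 10006 FPKM in S-L. Fast fibre markers were lower for 2 of 9 (ACTN3 and PVALB), with sums of 13998 to 20405 FPKM in S-H and 16585 to 33777 FPKM in S-L. Of 6 endothelial markers 1 (CLDN5) was higher, and 0 of 5 macrophage and 0 of 6 fibroblast markers had an unadjusted p below 0.05. With size factors the counts with an unadjusted p below 0.05 were 6 of 11 for adipocyte markers, without LIPE and with 4 past both thresholds, 0 of 9 for slow fibre markers and again 2 of 9 lower for fast fibre markers. No marker found was at 0 in every pig. The part of adipocytes and fibre types in the values of SLC25A42, SLC25A17 and SLC25A6 was not tested.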

How the data were processed

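RNA of 6 LD muscles (3 S-H, 3 S-L) was measured, with 1 library per pig. The authors made strand-specific libraries depleted of ribosomal RNA, aligned reads with HISAT2 to the pig genome and assembled and quantified transcripts with StringTie. The deposited values are FPKM per transcript. From the values, 21104 annotated rows without a symbol are on a TPM scale and were multiplied by 1 factor per pig. The factor ran from 0.639 in LW119 to 0.847 in LW82. SLC25A10, SLC25A32 and SLC25A46, compared by gene ID, have no symbol, so their values and fold changes depend on this factor. All rows of the SLC25A members carry a symbol and were used as deposited. The paper lists the number of reads of each library. No counts per gene were used here, so no counting intervals are given. The edgeR test named by the authors needs counts and was replaced.

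Values were summed by gene ID. Protein-coding type came from RefSeq by symbol (13901 genes) or at least 50% reciprocal overlap (4666 genes), and 12740 such genes with a mean of at least 0.1 FPKM were fitted with limma 3.58.1 (R 4.3.3), with a variance trend, on log2(FPKM + 0.1). Fold changes of low genes are understated on this scale. Adjusted p values are Benjamini-Hochberg over all tested genes. Shares were compared by exact permutation tests. The fit was tested on simulated data, drawn without shifts shared by all genes of a library. Of 200 genes changed by a log2 fold of 1.5, 158 passed both thresholds, as did 0.558% of 12540 unchanged genes. The changed genes were drawn only from those with a mean of at least 1 FPKM, so recovery of lower genes was not tested. Named with values in every pig were members at an unadjusted p below 0.05, the highest member of each substrate class, and the ADP/ATP, phosphate, citrate, dicarboxylate, oxoglutarate, aspartate/glutamate and acylcarnitine carriers. Others were named after their values were seen. Members, lists and tests were chosen with earlier results of these data known. Listed partner and marker genes not found by symbol, among them UCP1, MPC1, MTCH2, CIDEA, MB, TTN, MYH1, MYH2 and MYH4, were not analysed here. The fast fibre counts and sums thus leave out the myosins MYH1, MYH2 and MYH4. The values of 1 member are not reported here, though it is counted. Alternatives were other pseudocounts, minimums, scalings, variance models, gene sets and transcript sums, and leaving out each pig.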

Additional observations from a re-analysis of the deposited data

How the results depend on the processing

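No counts per gene were used, and 3 pigs per group limit every comparison. The standard errors of the members' log2 fold changes ran from 0.24 to 1.09. No paired analysis was possible because the pigs are different animals and replicate numbers carry no pairing. The count of members past both thresholds was 1 with annotated transcripts only (SLC25A26) and 0 to 1 when each pig was left out (SLC25A5 without LW70, SLC25A27 without LW82). The 3 members at an unadjusted p below 0.05 became 1 with median-ratio size factors (SLC25A42), beside 6.68% of all genes. They became 1 with the transcript of highest mean (SLC25A6), and 2 to 5 with each pig left out. The count was 5 without LW70 and 5 without LW82. Of the 3, none remained without LW63, where SLC25A34 and SLC25A47 were called instead. Shares of all genes are not given for the transcript choices and the fits with a pig left out. Those counts are therefore not read as particular to the carriers.

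The median log2 fold change of the members was 0.15 to 0.39 with each pig left out. With median-ratio size factors the log2 fold changes of SLC25A11, SLC25A12, SLC25A13, SLC25A20 and SLC25A36 turned to -0.19, -0.20, -0.16, -0.027 and -0.034, each within 1 standard error of 0. With quantile normalization those of SLC25A4, SLC25A11, SLC25A12 and SLC25A13 turned to -0.0064, -0.20, -0.18 and -0.15. The difference in the SLC25A12 share was 0.01 percentage points, -2.34 with annotated transcripts only and -2.33 without rows outside the RefSeq gene, an alternative chosen after seeing the data.

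With each pig left out, the log2 fold change ranged from -0.23 to 0.29 for SLC25A11, -0.37 to 0.55 for SLC25A12, -0.13 to 0.21 for SLC25A13, -0.010 to 0.50 for SLC25A20, -2.59 to 0.22 for SLC25A34 and -0.0038 to 0.38 for SLC25A36. It ranged from 0.0044 to 0.64 for SLC25A4, 0.42 to 1.13 for SLC25A5, 0.05 to 0.93 for SLC25A1, -0.97 to -0.38 for SLC25A25, 0.56 to 1.09 for SLC25A42, 0.61 to 1.36 for SLC25A17 and 0.50 to 0.96 for SLC25A6. The share difference ranged from -1.56 to 2.22 percentage points for SLC25A12, -0.75 to 0.80 for SLC25A37, -10.4 to -0.38 for SLC25A4, -15.9 to -6.72 for SLC25A25 and -6.67 to -1.21 for SLC25A3. The cause of these changes was not tested.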
